A study of Mus musculus with 8 samples.

Results

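*Perm1*, the 3 PGC-1 genes (*Ppargc1a*, *Ppargc1b* and *Pprc1*) and the 3 estrogen-related receptor genes (*Esrra*, *Esrrb* and *Esrrg*) were examined in AtT20 cells, a mouse pituitary corticotroph tumor line. They are 7 of the 19751 genes that could be named on the array, and 9 of its 39429 probes carry a RefSeq transcript of one of them. The genes were chosen by their biology and by their lower signal with HX630 in an earlier look at these arrays, so their differences between the groups are given as a description, with no p-value. The control group held 4 samples of untreated AtT20 cells. The HX630 group held 4 samples incubated for 48 hr with HX630, an agonist of the retinoid X receptors (RXRs), at 10 μM. Both groups were kept in DMEM with 1% stripped serum, and the labels name no genetic change in either. AtT20 is a single established line, and the labels do not say whether the replicates came from separate cultures, so the spread between samples may be technical. Each group lay on a slide of its own and was scanned as one, so slide, scan and HX630 cannot be told apart.

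PGC-1 proteins are coactivators that bind no DNA themselves and are brought to genes by transcription factors. Estrogen-related receptors (ERRs) are orphan nuclear receptors that bind an extended half-site and, with PGC-1α as coactivator, drive genes of fatty acid oxidation, the citric acid cycle and the respiratory chain. *Perm1* was named as a regulator induced by PGC-1 and ERR in muscle, where the 3 families are known to act in one oxidative program. *Ppargc1a* is itself induced by cAMP and calcium signals.

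The array scans gave 1 intensity per probe, expressed here as the log2 signal relative to the 75th percentile of its array, so that 0 is the level of a bright probe. The 75th percentile lay between 1335 and 1862 intensity units in control and between 1802 and 1900 with HX630. Between 69.7% and 73.5% of probes were well above background, no probe of the 7 genes was saturated, and arrays of one group correlated at 0.994 to 0.998 over the probes tested against 0.978 to 0.984 between the groups. The number of arrays limits the precision. *Pomc*, the ACTH precursor that marks corticotrophs, had a signal of 7.78 to 8.19 in control and 7.55 to 7.63 with HX630, and *Tbx19*, a corticotroph transcription factor, 1.69 to 1.80 and 1.30 to 1.49. Of 12 corticotroph markers, 11 could be tested. The prohormone enzymes *Pcsk1* and *Cpe* and the granin *Scg2* were called lower (27.3%, beside 11.2% of all genes). *Neurod1* and the CRH receptor *Crhr1* were called higher (18.2%, beside 8.38% of all genes).

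The promoters of 4 of the genes whose signals were lower with HX630 are shown to give the letters that a nuclear receptor could read there. Each RefSeq window (build GRCm38.p6) runs from 250 bases before to 50 bases after the start of the transcript and is written along the gene's strand. Capitals mark the nuclear receptor half-site AGGTCA, which on the opposite strand reads TGACCT. The windows are chr4:156215677-156215976 (+ strand) for *Perm1*, chr5:51567676-51567975 (- strand) for *Ppargc1a*, chr19:46056289-46056588 (+ strand) for *Pprc1* and chr19:6921759-6922058 (- strand) for *Esrra*.
Perm1: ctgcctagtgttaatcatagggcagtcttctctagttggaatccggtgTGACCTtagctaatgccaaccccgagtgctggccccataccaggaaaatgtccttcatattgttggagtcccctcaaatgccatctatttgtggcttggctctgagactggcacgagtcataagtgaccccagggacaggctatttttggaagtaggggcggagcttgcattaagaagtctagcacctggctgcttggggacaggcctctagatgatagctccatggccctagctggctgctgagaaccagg
Ppargc1a: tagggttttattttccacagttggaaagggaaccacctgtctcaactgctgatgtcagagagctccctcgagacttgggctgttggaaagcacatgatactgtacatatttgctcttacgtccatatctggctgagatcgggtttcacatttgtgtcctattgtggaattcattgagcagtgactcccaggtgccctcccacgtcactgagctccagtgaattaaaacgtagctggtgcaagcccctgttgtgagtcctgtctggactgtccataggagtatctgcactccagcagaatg
Pprc1: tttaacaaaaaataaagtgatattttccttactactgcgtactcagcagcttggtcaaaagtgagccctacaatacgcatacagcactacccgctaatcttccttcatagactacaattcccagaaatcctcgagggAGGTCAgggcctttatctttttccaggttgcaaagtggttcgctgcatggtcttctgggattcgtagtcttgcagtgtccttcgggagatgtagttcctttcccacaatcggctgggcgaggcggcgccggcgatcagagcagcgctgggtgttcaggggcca
Esrra: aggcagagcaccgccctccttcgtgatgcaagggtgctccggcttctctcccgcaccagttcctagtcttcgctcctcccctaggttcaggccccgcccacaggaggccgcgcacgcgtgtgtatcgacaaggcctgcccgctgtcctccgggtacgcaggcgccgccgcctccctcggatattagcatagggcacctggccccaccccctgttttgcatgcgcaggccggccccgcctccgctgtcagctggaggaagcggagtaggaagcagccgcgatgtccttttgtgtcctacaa
The *Perm1* window held AGGTCA once, on the opposite strand from base 49, and the *Pprc1* window held it once, on the gene's strand from base 138. No half-site was in the *Ppargc1a* and *Esrra* windows, in the 2 windows of *Esrrb* or in the 4 of *Esrrg*. The ERR element TNAAGGTCA, which contains the half-site and was searched on both strands as well, was in none of the 10 windows of the 6 genes with an entry. Over all 32851 promoter windows of 300 bases, 16.3% held AGGTCA and 1.28% held TNAAGGTCA. GC content was 52.3% for *Perm1*, 48.7% for *Ppargc1a*, 50% for *Pprc1* and 66% for *Esrra*. *Ppargc1b* has no entry in the promoter table used here.

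*Perm1*, the muscle regulator, was the gene of the set with the lowest remaining signal relative to control. Its 1 probe had log2 signals of 0.85, 0.64, 0.86 and 0.92 in the 4 control arrays and of -4.22, -5.70, -6.00 and -5.91 in the 4 HX630 arrays. Every HX630 array was below every control array, and HX630 replicate 1 was the highest of its group. In intensity units the control arrays read 2402, 2122, 3392 and 3187 and the HX630 arrays 96.6, 35.5, 28.5 and 31.6. The mean difference was -6.28 ± 0.37 (SE, n = 4 arrays in each group), which left 1.29% of the control signal, 77.6-fold lower. The probe stayed well above background on all 8 arrays. Without HX630 replicate 1 the difference was -6.69, and with normexp background correction over all arrays it was -5.27, or 38.7-fold lower. On the HX630 arrays the probe lay 1.10 to 2.42 above the lowest signal well above background (log2). *Perm1* had the second largest fall of the 14305 genes well above background on all 8 arrays.

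**Figure D1:**
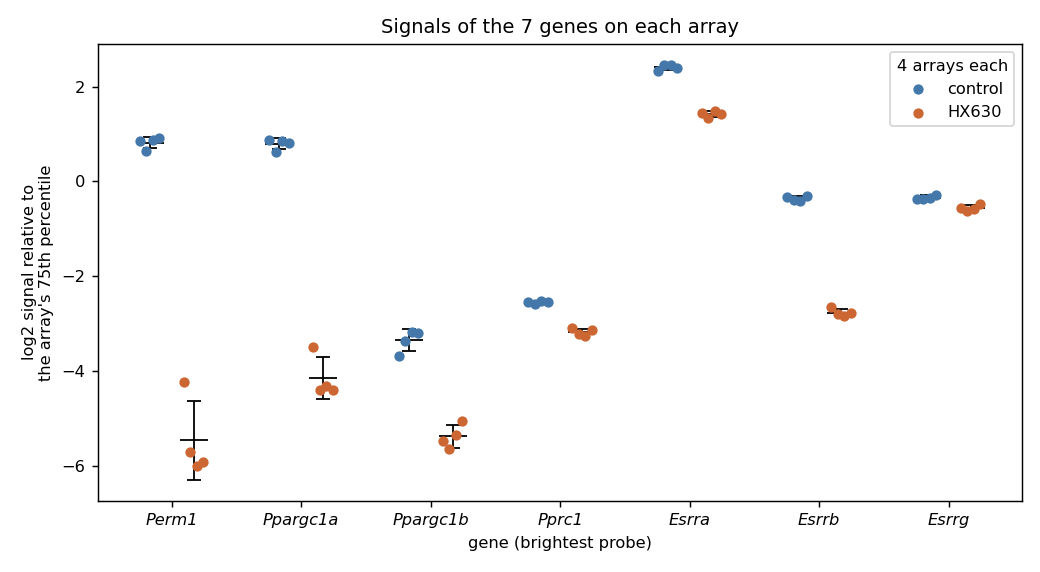
Log2 signal relative to the array's 75th percentile (vertical axis) of the brightest probe of each of the 7 genes (horizontal axis). Points are single arrays, blue for control and orange for HX630 with 4 arrays in each, and black marks give mean ± SD. Every HX630 array lies below every control array for all 7 genes under this scaling, from a difference of -6.28 for *Perm1* to -0.22 for *Esrrg*, and the *Esrrg* difference was 0.044 under spike-in scaling. The height of one gene's probe says nothing about its level against another gene.

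*Ppargc1a*, which encodes PGC-1α, the coactivator known for driving mitochondrial biogenesis, showed the second largest difference of the set. Its brighter probe read 0.87, 0.62, 0.86 and 0.81 in control and -3.48, -4.40, -4.31 and -4.40 with HX630. HX630 replicate 1 was again the highest HX630 array, and the groups were far apart. The difference was -4.94 ± 0.21 (SE, n = 4 in each group), which left 3.26% of control, 30.7-fold lower, and was -5.16 without HX630 replicate 1 and -4.43 (21.5-fold) with normexp. The second *Ppargc1a* probe was below the background limit throughout the HX630 group. It read between -2.76 and -2.61 in control and was at least 20.9-fold lower with HX630, where the lowest signal well above background on each array stood in for its own.

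*Ppargc1b*, which encodes PGC-1β, the closest relative of PGC-1α, read -3.68, -3.36, -3.17 and -3.19 in control and -5.46, -5.63, -5.35 and -5.05 with HX630. Its HX630 arrays were all lower, with replicate 4 the highest rather than replicate 1. The difference of -2.02 ± 0.15 (SE, n = 4 in each group) left 24.6% of control. *Pprc1* encodes the PGC-1-related coactivator, known from proliferating cells. It read -2.54, -2.57, -2.51 and -2.53 in control and -3.09, -3.21, -3.25 and -3.14 with HX630, a difference of -0.63 ± 0.043 (SE, n = 4 in each group) that left 64.4% of control. This lay just past the 1.5-fold threshold, and *Pprc1* fell short of it under quantile normalization (-0.58), median scaling (-0.55) and spike-in scaling (-0.37).

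Among the receptors, *Esrrb*, known for its role in stem cells and the inner ear, had the largest difference. It read -0.33, -0.38, -0.40 and -0.30 in control and -2.65, -2.79, -2.83 and -2.77 with HX630. The arrays within each group were close together and the groups were well separated. The difference was -2.41 ± 0.049 (SE, n = 4 in each group), or 18.9% of control. *Esrra*, which encodes the ERR most tied to PGC-1α in oxidative metabolism, read 2.34, 2.45, 2.45 and 2.39 in control and 1.45, 1.34, 1.48 and 1.42 with HX630. Its difference of -0.99 ± 0.044 (SE, n = 4 in each group) left 50.5% of control.

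*Esrrg*, the ERR of oxidative muscle and brain, differed least. Its brighter probe read -0.36, -0.38, -0.34 and -0.27 in control and -0.56, -0.62, -0.57 and -0.48 with HX630. The groups did not overlap, but the difference of -0.22 ± 0.043 (SE, n = 4 in each group) left 86.0% of control and was short of the fold threshold. It was 0.044 under spike-in scaling. The second *Esrrg* probe differed by -0.16 ± 0.067 (SE, n = 4 in each group), and its groups overlapped.

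**Figure D2:**
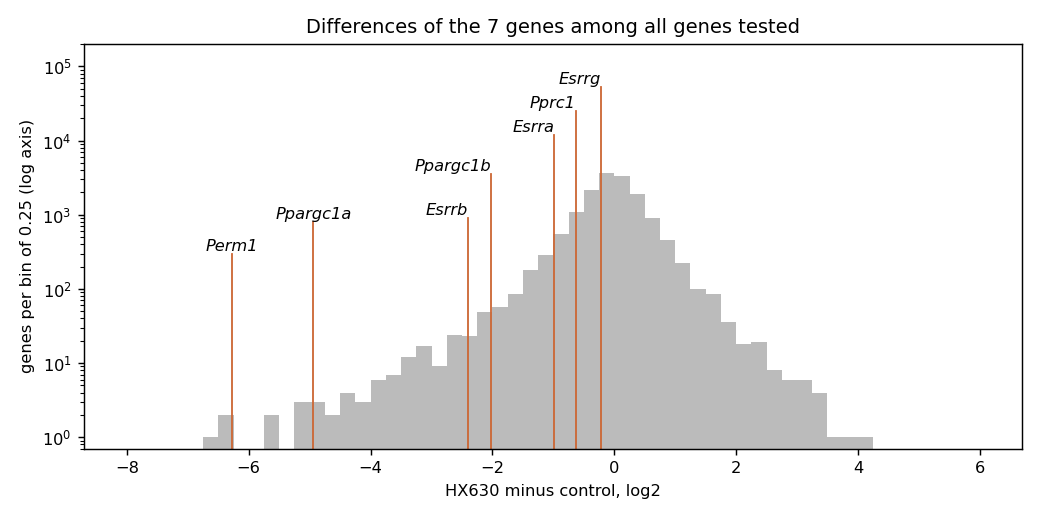
Number of genes (vertical log axis, bins of 0.25) by the difference between HX630 and control on the log2 scale (horizontal axis), for the 15319 genes tested. Orange lines mark the 7 genes, whose heights have no meaning. *Perm1* at -6.28 and *Ppargc1a* at -4.94 lie in the far left tail, and *Esrrg* at -0.22 lies near the center.

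A gene was called at an adjusted p below 0.01 in limma over all probes tested, with a fold above 1.5. In these terms 6 of the 7 genes were called lower and none higher, beside 11.2% of all genes called lower and 8.38% called higher. Every HX630 array was below every control array for all 7, beside 32.8% of all genes. The median difference of the 7 was -2.02 against -0.034 over all genes. Since the genes were selected on this contrast, nothing is read from these counts. By size of the fall among the 14305 genes well above background on all 8 arrays, *Ppargc1a* had rank 6, *Esrrb* rank 71, *Ppargc1b* rank 123, *Esrra* rank 637, *Pprc1* rank 1467 and *Esrrg* rank 4552. Genes not measured above background with HX630 have only a limit and were left out of these ranks.

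HX630 replicate 1 stood highest of its group for *Perm1* and *Ppargc1a*. It kept 3.03% of the control signal of *Perm1*, against 0.970% for the mean of the other 3 HX630 arrays, and 5.15% against 2.79% for *Ppargc1a*. The excess was 2.06 percentage points of the control level for *Perm1*, 2.36 for *Ppargc1a*, 1.99 for *Esrrb*, 1.12 for *Esrra* and 4.88 for *Pprc1*, which kept far more of its signal. For *Ppargc1b* this array was lower than the others by a difference of -2.31 points. The same array was the highest HX630 array in 38 of 40 other genes that fell by more than 3 on the log2 scale and stayed well above background (95%), with a median excess of 2.62 points. In 11609 genes that were not called it was the highest in 45.4%, with a median excess of 2.15 points. The part of this array in the size of each difference was not tested beyond leaving it out.

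**Figure D3:**
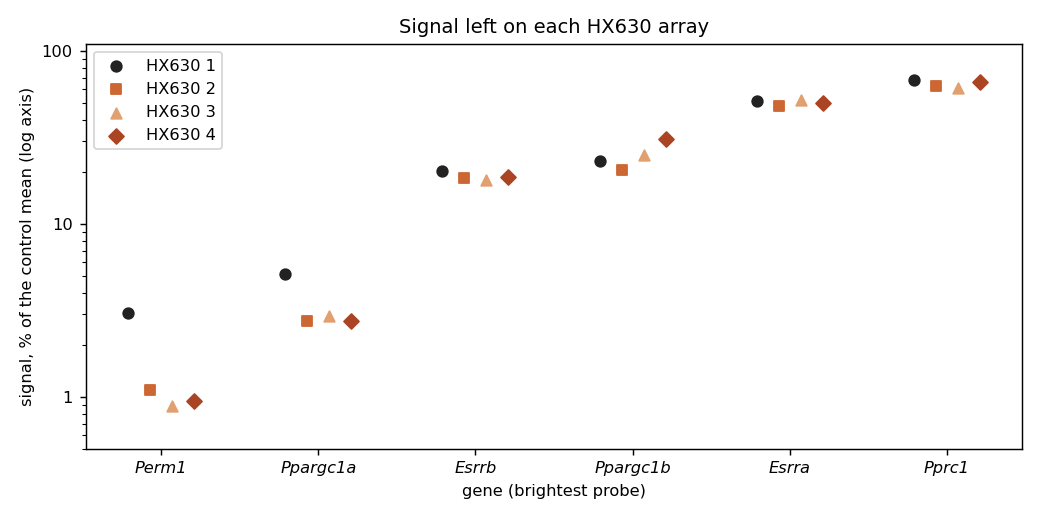
Signal on each HX630 array as a percentage of the control mean (vertical log axis) for the 6 genes called lower (horizontal axis), with 1 symbol for each HX630 array. HX630 replicate 1 (black circles) kept 3.03% of *Perm1* and 5.15% of *Ppargc1a*, above the other 3 arrays, while for *Ppargc1b* replicate 4 was the highest.

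The known target genes of ERR and PGC-1 in oxidative metabolism showed differences that were mostly small. They were below 0 in 35 of 39 (89.7%), beside 53.6% of all other genes tested, with a median near 0 under spike-in scaling. Of 41 genes on this list, 39 could be tested, 2 were called lower and none higher (5.13% lower, beside 11.2% of all genes). *Cpt1b*, the muscle form of the enzyme that admits fatty acids to mitochondria, read -2.38, -2.50, -2.59 and -2.42 in control and -3.40, -3.32, -3.45 and -3.51 with HX630. Its groups did not overlap, and it fell by 0.95 ± 0.060 (SE, n = 4 in each group, limma adjusted p = 6.13e-06). *Slc2a4*, the insulin-responsive glucose transporter, fell by 0.59 ± 0.031 (limma adjusted p = 2.08e-06), at the edge of the fold threshold. Its call was lost under each other percentile, median, quantile or spike-in scaling, and without control replicate 1 (-0.582) or control replicate 4 (-0.583). The median of the list was -0.27, against -0.034 for all genes, and the list stood 0.23 below all genes with the median scaling and the spike-in scaling too, although its own median was then -0.18 and -0.0032. With quantile normalization it stood 0.16 below all genes. With no fold threshold, 22 of the 39 (56.4%) were lower at an adjusted p below 0.01, beside 27.2% of all genes. Among them, cytochrome c (*Cycs*) differed by -0.42 ± 0.035, the citric acid cycle subunit *Idh3a* by -0.49 ± 0.033 and the fatty acid dehydrogenase *Acadm* by -0.32 ± 0.045, none of them past the fold threshold. *Sirt3*, the mitochondrial deacetylase, differed by -0.050, and *Mfn2*, a fusion protein of the outer membrane, by -0.0092. Both were above 0 under median, quantile and spike-in scaling. *Pdk4* and *Ckmt2* were not well above background on enough arrays to be tested.

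**Figure D4:**
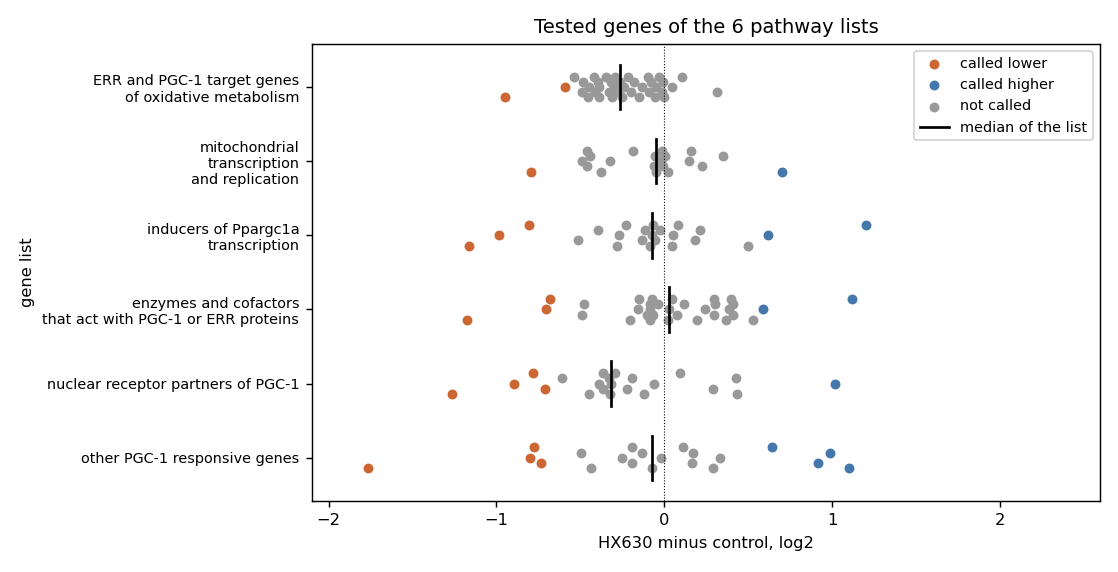
Difference between HX630 and control on the log2 scale (horizontal axis) for each tested gene of 6 lists (vertical axis; points are spread within a row for legibility only). Orange points were called lower, blue points higher and gray points not called, and black bars are list medians. The ERR and PGC-1 targets lie mostly between -0.6 and 0 with a median of -0.27, which was -0.0032 under spike-in scaling.

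The genes of mitochondrial transcription and replication, which PGC-1 proteins act on through nuclear respiratory factors, had 1 gene called in each direction of 21 tested (4.76% each way, beside 11.2% lower and 8.38% higher over all genes), with a median of -0.048 that was above 0 under median and spike-in scaling and with normexp. *Polg2*, a subunit of the mitochondrial DNA polymerase, fell by 0.79 ± 0.040 (limma adjusted p = 1.87e-06, every HX630 array below control), and the call was lost under spike-in scaling. A second *Polg2* probe differed by -0.88. The nuclease *Mgme1* rose by 0.70 ± 0.044 (limma adjusted p = 5.76e-06), and its call was lost with normexp background correction. The nuclear respiratory factors *Nrf1* and *Gabpa* differed by -0.19 ± 0.037 and -0.49 ± 0.038, and *Tfam*, the mitochondrial transcription factor, by -0.053. None of these passed the fold threshold, and a second *Gabpa* probe differed by 0.010. The other *Tfam* probes were above 0, at 0.082 and 0.30, and the other *Nrf1* probes differed by -0.41 and -0.30.

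The list of inducers of *Ppargc1a* transcription had 3 genes called lower (13% of 23 tested) and 2 higher (8.70%), beside 11.2% and 8.38% of all genes, with a median of -0.070 that was above 0 under median and spike-in scaling. *Mapk12*, the p38γ kinase, fell from signals of 1.99 to 2.14 to signals of 0.81 to 0.98, by 1.17 ± 0.055 (SE, n = 4 in each group, limma adjusted p = 1.36e-06). *Mef2d*, of the MEF2 family that acts on the *Ppargc1a* promoter in muscle, fell by 0.99 ± 0.053 (limma adjusted p = 2.43e-06). The calcium-activated kinase *Camk2d* fell by 0.80 ± 0.041 (limma adjusted p = 1.97e-06), a call lost under spike-in scaling at this probe. Its other probes differed by -1.29 and -1.07. *Mapk11*, the p38β kinase, rose by 1.20 ± 0.058 (limma adjusted p = 1.45e-06). The CREB coactivator *Crtc3* rose by 0.62 ± 0.044 (limma adjusted p = 1.10e-05) at one probe, while its other probe differed by -0.0051. *Creb1*, through which cAMP acts on *Ppargc1a*, differed by 0.083 and *Camk2b* by 0.21, neither past the threshold.

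Enzymes and cofactors that act with PGC-1 or ERR proteins had 3 genes called lower (9.09%) and 2 higher (6.06%) of 33, beside 11.2% and 8.38% of all genes, with a median of 0.026. Under spike-in scaling, which shifted the median of all genes by 0.262, 1 was called lower and 8 higher and the median was 0.29. All 15319 genes then had 947 called lower and 2831 higher, with a median of 0.23. *Nr0b2* (SHP), a receptor that represses others, fell by 1.18 ± 0.045 (limma adjusted p = 5.39e-07) and *Prox1*, a corepressor of ERRα, by 0.71 ± 0.046 (limma adjusted p = 7.27e-06). The call of *Prox1* was lost under spike-in scaling. *Smarcd3*, a chromatin remodeling subunit, rose by 1.12 ± 0.035 (limma adjusted p = 2.56e-07), and *Prkaa2*, the AMPK subunit that phosphorylates PGC-1α, by 0.59 ± 0.038 (limma adjusted p = 7.01e-06), just past the threshold. The *Prkaa2* call was lost with normexp, and without control replicate 2 (0.573) or 3 (0.581) or HX630 replicate 1 (0.583) or 2 (0.578). *Sirt1*, which deacetylates PGC-1α, differed by -0.038, *Prkaa1* by -0.15, the acetyltransferase *Kat2a* by -0.065 and the corepressor *Nrip1* by 0.30.

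Nuclear receptor partners of PGC-1 had 4 genes called lower (18.2%) and 1 higher (4.55%) of 22, beside 11.2% and 8.38% of all genes, with a median of -0.32. Under spike-in scaling 1 was called lower and 3 higher and the median was -0.057. All 15319 genes then had 947 called lower and 2831 higher, with a median of 0.23. Relative to the median of all genes, the list median was -0.285 under the main, median and spike-in scaling. It was -0.266 with quantile normalization. With no fold threshold, 10 of the 22 (45.5%) were lower at an adjusted p below 0.01, beside 27.2% of all genes. The liver X receptor *Nr1h3* fell by 1.26 ± 0.053 (limma adjusted p = 7.94e-07), *Ppard* by 0.78 ± 0.033 (limma adjusted p = 8.65e-07) and *Rora* by 0.71 ± 0.065 (limma adjusted p = 4.63e-05). *Rarb*, above background on 7 arrays, fell by 0.89 ± 0.22 (limma adjusted p = 0.00934), and its call held in 4 of 20 alternatives. It was lost without any one array but HX630 replicate 2, and differed by -1.01 to -0.71 over the arrays left out. *Nr5a2* rose by 1.02 ± 0.042 (limma adjusted p = 7.24e-07). *Rxra*, one of the RXR genes, differed by 0.096 ± 0.12 at its brighter probe and was not called, while its second probe, above background on 8 arrays too, fell by 0.68 ± 0.11 (limma adjusted p = 0.00107). *Rxrb* differed by -0.33 and *Ppara* by -0.37, neither past the fold threshold. The calls of *Ppard*, *Rora* and *Rarb* were lost under spike-in scaling.

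Other genes that respond to PGC-1 went both ways, with 4 called lower and 4 higher of 21 (19% each way, beside 11.2% lower and 8.38% higher over all genes) and a median of -0.074 that was above 0 under median and spike-in scaling. Under spike-in scaling 1 was called lower and 5 higher, beside 947 lower and 2831 higher of all 15319 genes. The neurotrophin *Bdnf* read -1.64, -1.93, -1.79 and -1.81 in control and -3.27, -3.61, -3.76 and -3.59 with HX630, and fell by 1.77 ± 0.11 (limma adjusted p = 5.35e-06). *Cebpb*, *Vegfa* and *Cidea* fell by 0.80, 0.78 and 0.73, calls that were lost under spike-in scaling. A second *Vegfa* probe differed by -0.86. The uncoupling proteins *Ucp3* and *Ucp2* rose by 1.10 ± 0.15 (limma adjusted p = 0.000385) and 0.99 ± 0.044 (limma adjusted p = 9.84e-07), and the deiodinase *Dio2* and the thioredoxin reductase *Txnrd2* by 0.92 and 0.65. *Ucp1*, the uncoupling protein of brown fat, was not above background on any array.

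Because *Perm1* is best known from muscle, muscle markers were read beside it. Of 26 skeletal muscle markers, 17 could be tested and 5 were below background on all arrays. *Ckm*, the muscle creatine kinase, was above background on 3 arrays and not tested, and *Myod1*, the muscle lineage factor, read -6.12 to -5.84 in control and -5.76 to -5.60 with HX630. The summed signal of the tested markers, in multiples of the array's 75th percentile, was 3.03 to 3.87 in control and 1.06 to 1.25 with HX630. *Ttn* alone made up 1.93 to 2.72 of it in control and 0.219 to 0.278 with HX630, and the other 16 markers summed to 1.02 to 1.21 and 0.836 to 0.970, a split chosen after seeing the data. Probe heights do not compare levels between genes, so these are sums of probe signal and not shares of transcript. The 4 called lower (23.5%, beside 11.2% of all genes) were *Ttn*, which fell by 3.32 ± 0.12, *Des*, *Myh4* and *Tnni2*. They were named after their values were seen, and no skeletal muscle marker was called higher. *Des*, above background on 4 control arrays but on only 1 HX630 array, read -5.37 to -4.92 in control and -6.86 to -6.51 with HX630. *Myh4* fell by 1.25 and *Tnni2* fell by 0.59, though the *Tnni2* call was lost in 10 of 21 alternatives, among them those without control replicate 1 (-0.50) or 2 (-0.55) and HX630 replicate 2 (-0.61), 3 (-0.57) or 4 (-0.55). Of 12 heart markers 7 were tested. The cardiac actin *Actc1*, not above background in any control array, was at least 2.85-fold higher, a call lost with normexp. It was the only heart marker called (14.3% higher, beside 8.38% of all genes). Of 10 brown fat markers 6 were tested, with *Cidea* lower and *Dio2* higher as above (16.7% each way, beside 11.2% lower and 8.38% higher over all genes). Of 13 markers of other pituitary cells 7 were tested, and 3 were called lower (42.9%, beside 11.2% of all genes). Among them were *Sox2* and, except under spike-in scaling, *Gh*. None was called higher, though 3 of the 7 differed by more than 0. The part of muscle markers in the *Perm1* result was not tested. Of the genes beside *Perm1* in the RefSeq order, *AW011738*, a noncoding gene right after it, fell by 1.32 ± 0.054 (limma adjusted p = 6.90e-07). *Agrn*, *Isg15* and *Plekhn1* differed by -0.17, -0.10 and -0.36 and were not called, and *Gm46878* and *Gm46877* had no probe.

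The genes whose signal over the 8 arrays ran most like that of *Perm1* were *Gabpa* (Pearson r = 0.9997), *Yipf7* (0.9994), *Hecw2* (0.9989), *Etf1* (0.9989) and *Myoz3* (0.9989). These arrays form 2 groups, and 536 genes had a value above 0.99, so the measure mostly reads the difference between the groups. *Yipf7* and *Hecw2* were not above background on any HX630 array and were at least 32.0-fold and 11.6-fold lower. A second *Myoz3* probe differed by -1.04, against -5.03 for the one read here. With each group's mean taken off, the genes nearest to *Perm1* included *Gabpa* (0.989), *Slc24a3* (0.986), *Yipf7* (0.986) and *2700081O15Rik* (0.985). Without that step *2700081O15Rik* had r = -0.62 over the 8 arrays. Its signal was higher on every HX630 array than in control, with a difference of 0.56 that was not called. Within the set the values with group means taken off were 0.963 for *Ppargc1a*, 0.848 for *Esrrb*, 0.742 for *Pprc1*, 0.049 for *Esrra*, 0.0069 for *Esrrg* and -0.22 for *Ppargc1b*. These are descriptions over 8 arrays that share 1 cell line, and *Perm1* was highest of the HX630 group on HX630 replicate 1.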

How the data were processed

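RNA from 4 control and 4 HX630 samples of AtT20 cells was hybridized to 1-color Agilent arrays. Per the labels and the submitters' processing notes, the authors deposited Feature Extraction 10.7.3.1 output, in which the processed intensity of each spot is background-subtracted. They also deposited a table of log2 values, with column medians of -3.91 to -3.67, which were the log2 processed signal minus the array's 75th percentile, with a median offset of -0.0013 to -0.00013 by array. The genome build and a between-array scaling are not given in the sources used here.

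From the files, 1377 control spots and outlier spots were left out, spots of one probe were averaged on the log2 scale (39429 probes), and the array's 75th percentile was subtracted. The 28552 probes well above background on at least 4 of 8 arrays were tested with limma 3.58.1 in R 4.3.3 (lmFit, eBayes) and adjusted by the Benjamini-Hochberg method. Calls needed both an adjusted p under 0.01 and a change of more than 1.5-fold. SEs are moderated. A gene was read at its brightest probe. Probes were named by RefSeq accession (26055 probes, 66.1%), and the array's design build differs from the reference table, which served for names and gene order. RefSeq's promoter windows carry their own build. Proteins were not analysed here.

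The 7 genes, the 6 pathway lists and the marker lists were chosen with earlier results of these data known. Genes named were the 7, a fixed set of regulators and targets, called genes of each list (up to 4 in each direction among those above background on all arrays), the 3 genes on each side of *Perm1*, the 5 genes most like it, and a few markers; *Rarb* and the muscle markers called lower were named in addition. Alternatives changed the scaling, background correction, filter, variance model, test, replicate block and arrays used. The code was tested on simulated data. Some genes that this rule names are not reported here.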

Additional observations from a re-analysis of the deposited data

Results flagged for a closer look

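An array was marked where its gap to the nearest array of its group of 4, divided by the range of the group, exceeded Dixon's 95% limit. This held in 9 of 152 groups of probe signals examined, where 7.6 would be marked by chance at 1 in 20, and 6 of the 9 were due to HX630 replicate 1. Among the 7 genes it held for *Ppargc1a* with HX630 (ratio 0.894), in 1 of 18 groups. HX630 replicate 1 was also apart for *Gabpa* (0.866), *Scg2* (0.854), *Etf1* (0.927), *Slc24a3* (0.838) and *2700081O15Rik* (0.881). HX630 replicate 4 was apart for *Smarcd3* (0.903) and *Gh* (0.857), and control replicate 1 for *Ucp3* (0.97). Several of these genes were picked for their likeness to *Perm1*, on which HX630 replicate 1 was the highest array, so they are not separate evidence about that array.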

How the results depend on the processing

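*Perm1*, *Ppargc1a*, *Ppargc1b*, *Esrra* and *Esrrb* were called lower in all alternatives run on them, and *Pprc1* in 18 of 21. *Esrrg* was called in none of 22. Scaling to the spike-in probes raised the median of all genes by 0.262, and the share of called probes that were higher went from 40.1% to 73.5% (51.6% with median scaling, 49.8% with quantile normalization). Leaving out one array gave 4872 to 5447 probes called, 15 to 17 list genes lower and 9 to 10 higher, and differences of -6.69 to -6.10 for *Perm1* and -5.16 to -4.86 for *Ppargc1a*. *Mfn2* ranged from -0.030 to 0.010 with one array left out, and was above 0 without HX630 replicate 1 (0.0037) or control replicate 2. Signal over background limits the *Perm1* value, whose HX630 arrays lie 1.10 to 2.42 (log2) above the lowest signal well above background.

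With quantile normalization the ERR and PGC-1 target median was -0.13, *Pprc1* -0.58, *Sirt3* 0.0067 and *Mfn2* 0.0068. With median scaling the target median was -0.18, *Pprc1* -0.55, *Esrra* -0.90, *Esrrb* -2.32, *Esrrg* -0.13, *Tfam* 0.035, *Sirt1* 0.050, *Kat2a* 0.022, *Sirt3* 0.038 and *Mfn2* 0.078. With the percentile over detected probes *Mfn2* was 0.0089. With spike-in scaling 6 list genes were lower and 21 higher, beside 947 lower and 2831 higher of all 15319 genes. Under it the target median was -0.0032, *Ppargc1b* -1.76, *Pprc1* -0.37, *Esrra* -0.72, *Esrrb* -2.15 and *Esrrg* 0.044. In the same scaling *Nrf1* was 0.077, *Tfam* 0.21, *Sirt1* 0.22, *Prkaa1* 0.11, *Kat2a* 0.20, *Sirt3* 0.21, *Mfn2* 0.25, *Agrn* 0.088 and *Isg15* 0.16. With normexp *Perm1* was -5.27, *Ppargc1a* -4.43, *Ppargc1b* -1.57, *Esrrb* -2.14, *Sirt1* 0.046, *Kat2a* 0.032, *Creb1* -0.0051, *Mfn2* 0.015, *Rxra* -0.063, *Myod1* -0.25 and *Isg15* 0.017. With the mean of a gene's probes *Tfam* was 0.11, *Creb1* -0.049, *Mfn2* 0.012 and *Rxra* -0.29, and the other *Esrrg* probe gave -0.16. Without the fold threshold 13008 probes, 58 list genes lower and 30 higher were called. The cause of these shifts was not tested.

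Whether the replicate numbers pair the samples was not settled. With group means taken off, same-number correlations were 0.52, -0.0093, 0.24 and 0.38. Control replicates 1 and 4 matched their own number best among the HX630 arrays, and control replicates 2 and 3 did not. With the replicate number as a block 5555 probes were called against 5315, 16 list genes were lower and 10 higher, and the same count of 6 of the 7 genes was lower.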
